A study of Rattus norvegicus with 10 samples.

Results

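Annexins are a family of calcium-dependent phospholipid-binding proteins, and all genes of the deposited comparison of miR-145 with miR-ctl whose symbol is Anxa followed by a number were taken as members. This gave 8 genes, Anxa1, Anxa2, Anxa3, Anxa4, Anxa5, Anxa6, Anxa7 and Anxa11, of 16129 in that table and 23487 in the count table. The family was chosen by its measured values, which were higher with the miR-145 mimic in oligodendrocytes (OLs), so that comparison is described without a test. RNA of primary Sprague-Dawley rat cells, grown from the cortices of pups at postnatal day 1 to 3, gave 10 libraries in 5 groups of 2. OLs had received 30 nM of a scrambled mimic (miR-ctl), of the miR-145-5p mimic (miR-145), or the miR-145-5p and miR-219 mimics together (miR-145+miR-219), and were collected 5 days after transfection (DD5). Oligodendrocyte progenitor cells (OPCs) had received 30 nM of a scrambled inhibitor (anti-miR-ctl) or of the miR-145-5p inhibitor (anti-miR-145) and were collected after 24 h. None of the cells carried a genetic alteration according to the labels, and every library came from transfected cells. OPCs were shaken off mixed glial cultures and enriched by differential adhesion, so the libraries can hold RNA of other glia. A treatment tag of the 2 miR-145 libraries also names miR-219, whereas titles and descriptions give only miR-145, which was followed here.

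Annexins share a core that binds negatively charged phospholipids, among them phosphatidylserine, when calcium rises, and they differ in their N-terminal tails, which recruit partner proteins. They act in membrane repair, in the organization of membrane domains, and in exocytosis and endocytosis. In the nervous system they have been described mostly in microglia and astrocytes. A microRNA lowers RNAs that pair with its seed, and indirectly it moves many others in either direction. Mature microRNAs were not measured in these libraries, so the action of the mimics and of the inhibitor cannot be checked in them.

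The sequences of the introduced microRNAs are shown because every comparison turns on them, with the seed (bases 2 to 8) in capitals. They are the RefSeq entries on GRCr8, at chr18:57370033-57370055 on the minus strand for miR-145-5p and at chr3:33516561-33516581 on the minus strand for miR-219a-5p. The labels give the mimic of miR-145-5p the mature sequence, and they do not give the arm of miR-219. The seeds of the 2 microRNAs differ.
rno-miR-145-5p: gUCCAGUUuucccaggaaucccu
rno-miR-219a-5p: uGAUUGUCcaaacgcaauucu

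Libraries held between 33505668 and 42684176 estimated counts, and every annexin had at least 62 counts in every library. Levels are CPM (counts scaled to a common library size) after TMM scaling over all libraries, and they are compared between groups of libraries, not between genes, since no transcript lengths were used. Replicates of a group differed beyond counting error (chi-square per degree of freedom from 11.04 to 76.1), and no source says that they came from separate cultures. The p-values therefore measure only the spread between these libraries. The summed level of 10 markers of maturing OLs was between 15646 and 34690 CPM in OLs and between 1093 and 1261 CPM in OPCs, and that of 6 OPC markers was between 1473 and 2412 CPM in OLs and between 4004 and 5146 CPM in OPCs. Both labels thus matched their markers. Markers of other cell types were present too. The 10 astrocyte markers summed to between 5430 and 13195 CPM in OLs and to between 484 and 680 CPM in OPCs. The 14 microglia markers summed to between 421 and 1136 CPM in OLs and to between 1066 and 1597 CPM in OPCs. Of the markers looked for, Lhfpl3, Col1a2, Lum, Rgs5, Pecam1, Cldn5, Emcn, Snap25 and Slc17a7 were not analysed here. In such bulk RNA, a change in the number of cells of a type and a change in RNA per cell cannot be told apart.

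**Figure D1:**
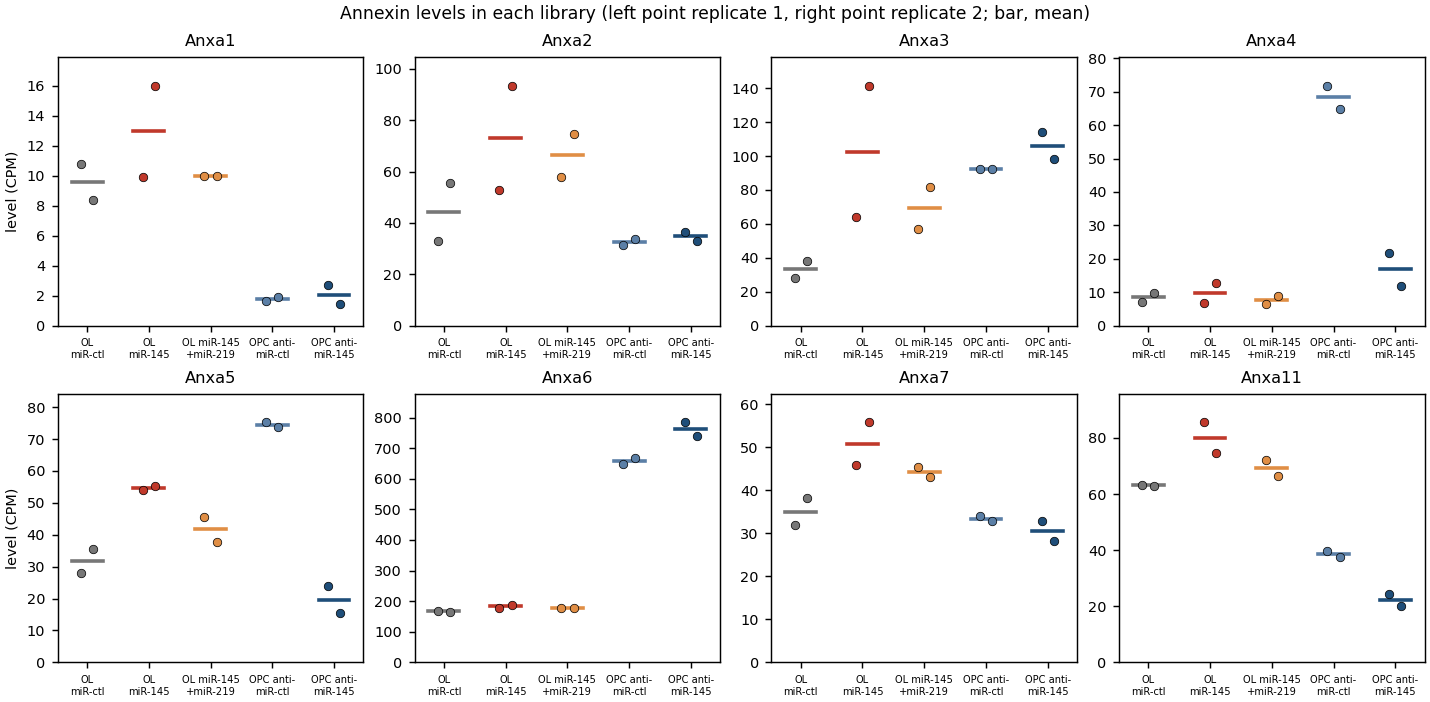
Level of each annexin in CPM (vertical axis, linear from 0, its own scale for each gene) in the 5 groups. Points are single libraries, replicate 1 on the left and replicate 2 on the right, and bars are group means. Anxa4, Anxa5 and Anxa11 sit lower in both anti-miR-145 OPC libraries than in both anti-miR-ctl OPC libraries, and replicate 2 of miR-145 holds the highest OL level of every annexin but Anxa11.

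The inhibitor of miR-145 was tested first for the annexins because these OPC libraries played no part in choosing the family. Anxa4, Anxa5 and Anxa11 were called lower in anti-miR-145 OPCs relative to anti-miR-ctl, and 0 annexins were called higher. Anxa4, a membrane-binding annexin known from epithelia, was at 71.7 and 64.8 CPM in the anti-miR-ctl libraries and at 21.9 and 11.98 CPM in the anti-miR-145 libraries. Anxa5, the phosphatidylserine-binding annexin used to stain apoptotic cells, was at 75.2 and 73.7 CPM in anti-miR-ctl and at 23.8 and 15.6 CPM in anti-miR-145. Anxa11, which binds ALG-2 and tethers RNA granules to lysosomes, was at 39.6 and 37.5 CPM in anti-miR-ctl and at 24.4 and 20.3 CPM in anti-miR-145. For all 3 genes both inhibitor libraries lay below both control libraries, as they did for 32.7% of all genes tested, and replicate 2 of anti-miR-145 was the lowest.

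The log2 fold change was -2.03 (standard error, SE, 0.26) for Anxa4, a 4.07-fold lower level, with an adjusted p of 0.0015 (quasi-likelihood test of edgeR, adjusted by Benjamini-Hochberg across the 15496 genes tested). For Anxa5 it was -1.93 (SE 0.19), a 3.81-fold lower level, with an edgeR adjusted p of 0.000492. For Anxa11 it was -0.80 (SE 0.12), a 1.74-fold lower level, with an edgeR adjusted p of 0.00309. These 3 of the 8 annexins were called among a background of 28.1% of all genes tested (12.1% higher and 16% lower), so the count does not set the family apart from other genes. DESeq2 called the same 3 annexins and 26.5% of all genes. They were also called in 11 of 11 other settings, where the edgeR or DESeq2 adjusted p ran from 1.14e-08 to 0.0076 for Anxa4, from 5.68e-24 to 0.00096 for Anxa5 and from 5.92e-07 to 0.00481 for Anxa11.

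The other 5 annexins did not pass the test in OPCs. Anxa6, the annexin with a duplicated core, was at 647 and 669 CPM in anti-miR-ctl and at 784 and 740 CPM in anti-miR-145, with a log2 fold change of 0.20 (SE 0.085, edgeR adjusted p = 0.126). Anxa3, best known from neutrophils and microglia, was at 92.2 and 92.6 CPM in anti-miR-ctl and at 114.0 and 98.4 CPM in anti-miR-145, with a log2 fold change of 0.19 (SE 0.10, edgeR adjusted p = 0.206). For both genes the groups did not overlap, with the inhibitor libraries higher, where 35.9% of all genes had both inhibitor libraries above both controls. Without replicate 2 of anti-miR-145 both were called, at edgeR adjusted p = 0.00367 for Anxa3 and 0.0117 for Anxa6. Anxa7, also called synexin for its part in granule fusion, was at 34.0 and 32.8 CPM in anti-miR-ctl and at 32.9 and 28.2 CPM in anti-miR-145. It was at -0.15 on the log2 scale (SE 0.11, edgeR adjusted p = 0.363) with overlapping libraries, and it was called without replicate 1 of anti-miR-145 (edgeR adjusted p = 0.0333). Anxa2, which pairs with S100a10 at the membrane, was at 31.4 and 33.9 CPM in anti-miR-ctl and at 36.6 and 32.8 CPM in anti-miR-145, and had a log2 fold change of 0.08 (SE 0.10, edgeR adjusted p = 0.624). Anxa1, the glucocorticoid-induced ligand of formyl peptide receptors, was lowest in counts, at 1.64 and 1.94 CPM in anti-miR-ctl and 2.71 and 1.43 CPM in anti-miR-145, and its log2 fold change was 0.20 (SE 0.34, edgeR adjusted p = 0.700). The groups overlapped for Anxa1 and Anxa2. RefSeq lists pseudogenes of Anxa2 and Anxa7, so reads of these genes could be shared and their levels are uncertain. The median log2 fold change was -0.04 over the 8 annexins and 0.0045 over all genes.

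**Figure D2:**
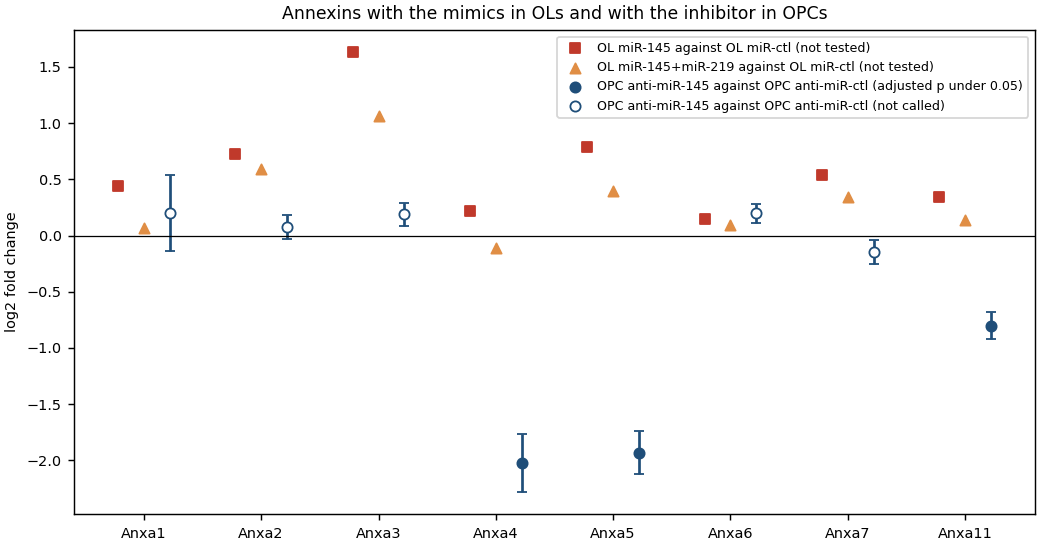
Log2 fold change (vertical axis) of each annexin in miR-145 OLs (squares) and miR-145+miR-219 OLs (triangles) relative to the same miR-ctl libraries, and in anti-miR-145 OPCs relative to anti-miR-ctl OPCs (circles, filled where the edgeR adjusted p was under 0.05, with bars of 1 standard error). The mimic values were not tested. Anxa4 lies at -2.03, Anxa5 at -1.93 and Anxa11 at -0.80 in OPCs, while the other circles lie between -0.15 and 0.20.

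Markers of microglia moved in both directions between the same OPC libraries. Of 14 microglia markers, 7 were called higher (C1qa, C1qb, C1qc, Trem2, Cx3cr1, P2ry12 and Cd68) and 6 were called lower (Itgam, Ptprc, Lyz2, Aif1, Tyrobp and Csf1r) in anti-miR-145 OPCs, against 12.1% and 16% of all genes, with a median log2 fold change of 0.09. Lyz2, the lysozyme of myeloid cells, fell from 446 ± 20.8 to 126 ± 43.6 CPM (SD, n = 2), and C1qa, a complement gene, rose from 83.1 ± 3.49 to 185 ± 30.9 CPM (SD, n = 2). The summed microglia level was 1597 and 1501 CPM in anti-miR-ctl and 1375 and 1066 CPM in anti-miR-145, with replicate 2 of anti-miR-145 lowest, as for Anxa4, Anxa5 and Anxa11. Lyz2 alone was at 461 and 431 CPM in anti-miR-ctl and at 157 and 95.4 CPM in anti-miR-145, a large part of that fall. The sum therefore does not stand for the list, in which 7 markers were called higher. Of 9 astrocyte markers tested, Gfap and Sox9 were called higher and 4 lower against the same shares, and the 10 markers summed to 680 and 649 CPM in anti-miR-ctl and to 484 and 537 CPM in anti-miR-145. Fibroblast or mural cell markers summed to between 2.72 and 5.23 CPM in OPCs. Endothelial markers summed to 12.3 and 11.4 CPM in anti-miR-ctl and to 3.07 and 3.45 CPM in anti-miR-145. That sum was mostly Flt1, at 10.6 and 10.04 against 1.01 and 0.76 CPM. Tek also had a negative log2 fold change, -1.45, while Kdr, Vwf and Cdh5 had 0.97, 0.96 and 0.31. Of these markers only Flt1 was called. Neuronal markers summed to 69.7 and 68.4 against 88.8 and 88.5 CPM. The part of these cells in the fall of Anxa4, Anxa5 and Anxa11 was not tested.

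The promoters of these 3 annexins are shown because the genes fell together with the inhibitor. They are RefSeq windows on GRCr8, from 250 bases before the start to 50 after it, at chr4:120798464-120798763 (minus strand) for Anxa4, chr2:121272647-121272946 (minus strand) for Anxa5 and chr16:1419484-1419783 (plus strand) for Anxa11. Capitals mark GGGCGG or its reverse complement CCGCCC, the GC box bound by Sp1.
Anxa4: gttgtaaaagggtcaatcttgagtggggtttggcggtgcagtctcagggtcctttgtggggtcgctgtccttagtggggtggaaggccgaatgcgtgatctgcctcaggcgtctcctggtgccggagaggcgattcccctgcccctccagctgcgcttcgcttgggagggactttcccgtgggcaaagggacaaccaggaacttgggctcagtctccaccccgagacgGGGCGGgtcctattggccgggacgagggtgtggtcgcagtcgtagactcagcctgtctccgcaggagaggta
Anxa5: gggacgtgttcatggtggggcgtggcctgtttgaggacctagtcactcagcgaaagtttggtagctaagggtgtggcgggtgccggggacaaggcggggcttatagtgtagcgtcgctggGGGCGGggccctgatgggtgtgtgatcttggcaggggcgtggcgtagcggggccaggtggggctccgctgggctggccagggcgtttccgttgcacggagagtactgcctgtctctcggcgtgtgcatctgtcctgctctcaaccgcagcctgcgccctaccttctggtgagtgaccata
Anxa11: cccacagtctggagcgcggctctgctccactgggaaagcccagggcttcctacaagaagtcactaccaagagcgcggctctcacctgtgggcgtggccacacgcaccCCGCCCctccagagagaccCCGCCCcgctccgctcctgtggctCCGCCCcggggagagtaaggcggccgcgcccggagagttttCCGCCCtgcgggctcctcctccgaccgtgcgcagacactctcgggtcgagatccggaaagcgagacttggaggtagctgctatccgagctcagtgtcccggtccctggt

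Promoters were found for 7 of the 8 annexins. The GC box was present in 6 of these 7, in all but Anxa1, against 33.1% of the 33469 promoters, and it occurred 4 times in Anxa11 and once each in Anxa4 and Anxa5. The TATA box TATAAA was found in Anxa1 and Anxa2 and in 14.2% of all promoters. The AP-1 motif TGANTCA was found in Anxa2 and in 7.33% of all promoters. The TEAD motif GGAATG was found in Anxa1 and Anxa2 and in 14.2% of all promoters. The core of the interferon-stimulated response element was in 0 of the 7 windows and in 3.92% of all promoters. Motifs were read on both strands. The 3 genes that fell with the inhibitor therefore shared the GC box with Anxa2, Anxa3 and Anxa7, which were not called, and none of the 3 held another of these motifs. GC content was 62.3% for Anxa4, 64.3% for Anxa5, 68.0% for Anxa11 and 45.0% for Anxa1, against a median of 51.7%.

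Between miR-145 and miR-ctl OLs, the comparison that chose the family, all 8 annexins had a log2 fold change above 0. The median was 0.49 over the annexins and -0.01 over the 15461 genes tested, 48.4% of which were above 0. Both miR-145 libraries lay above both miR-ctl libraries for 5 annexins, Anxa3, Anxa5, Anxa6, Anxa7 and Anxa11, as they did for 22.9% of all genes. EdgeR called 0 genes of the whole table in this comparison, with 2067 at an unadjusted p under 0.05, and DESeq2 called 649.

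Anxa3 differed most. It was at 28.4 and 38.3 CPM in miR-ctl and at 63.8 and 141 CPM in miR-145, a log2 fold change of 1.63. Both miR-145 libraries were above both controls, and replicate 2 was far above replicate 1. Anxa5 was at 28.1 and 35.5 CPM in miR-ctl and at 54.0 and 55.4 CPM in miR-145, a log2 fold change of 0.79 with close replicates. Anxa7 was at 31.9 and 38.2 CPM in miR-ctl and at 45.9 and 55.8 CPM in miR-145, a log2 fold change of 0.54. Anxa11 was at 63.4 and 63.0 CPM in miR-ctl and at 85.5 and 74.5 CPM in miR-145, a log2 fold change of 0.35. The smallest difference was that of Anxa6, at 169 and 165 CPM in miR-ctl and 179 and 189 CPM in miR-145, with a log2 fold change of 0.15, although its libraries did not overlap.

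For 3 annexins the libraries of the 2 groups overlapped. Anxa2 was at 33.1 and 55.6 CPM in miR-ctl and at 52.6 and 93.3 CPM in miR-145, a log2 fold change of 0.73. Replicate 2 was higher than replicate 1 in both groups. Anxa1 was at 10.8 and 8.40 CPM in miR-ctl and at 9.92 and 16.0 CPM in miR-145, a log2 fold change of 0.44. Without replicate 2 of miR-145 the log2 fold change was 0.050 for Anxa1, 0.25 for Anxa2 and 0.94 for Anxa3. Anxa4 was at 7.25 and 9.66 CPM in miR-ctl and at 6.84 and 12.7 CPM in miR-145, a log2 fold change of 0.22, or of -0.30 without replicate 2 of miR-145.

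With both mimics the annexins lay between miR-ctl and miR-145 in most cases. The group mean of miR-145+miR-219 OLs was above that of miR-ctl and below that of miR-145 for Anxa1, Anxa2, Anxa3, Anxa5, Anxa6, Anxa7 and Anxa11. Both comparisons share libraries with the comparison that chose the family, so their values are set side by side without a test. A family chosen as high in miR-145 relative to miR-ctl is likelier to lie between them in a further group. Anxa3 was at 56.7 and 81.8 CPM with both mimics, a log2 fold change of 1.06 relative to miR-ctl and of -0.58 relative to miR-145. Anxa2 was at 57.9 and 74.7 CPM, with 0.59 relative to miR-ctl and -0.15 relative to miR-145 on the log2 scale. Anxa5 was at 45.5 and 37.8 CPM, with 0.40 and -0.40. Its 6 OL libraries fell into 3 ranges that did not overlap. Anxa7 was at 45.4 and 43.1 CPM, with 0.34 and -0.21, and Anxa11 was at 72.0 and 66.5 CPM, with 0.14 and -0.22. Anxa6 was at 177 and 178 CPM, with 0.09 and -0.06. Anxa1 was at 10.0 CPM in both libraries, with 0.06 and -0.38, and Anxa4 was at 6.56 and 9.04 CPM, with -0.11 and -0.34.

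Relative to miR-ctl, 6 of the 8 annexins had both libraries with both mimics above both controls, where 17.2% of all genes did, and the median was 0.24. Anxa1 and Anxa4 overlapped. Relative to miR-145, all 8 had a log2 fold change below 0 (49.3% of all genes were above 0) with a median of -0.28. For 4 of them both libraries with both mimics lay below both miR-145 libraries, where 11.6% of all genes did. Both directions were favoured by the choice of the family, so these shares of all genes are not a like comparison. By edgeR 0 genes of the whole table were called in either comparison, with 956 and 228 at an unadjusted p under 0.05, and DESeq2 called 106 and 9. Without replicate 2 of miR-145 the second median was 0.0017. Anxa5, Anxa6, Anxa7 and Anxa11 stayed below 0 with any of the libraries left out, at -0.27, -0.012, -0.05 and -0.12 at the highest, whereas Anxa1, Anxa2, Anxa3 and Anxa4 were above 0 without that replicate.

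The mean astrocyte and microglia sums were also highest in miR-145 OLs, but their single libraries did not all follow the annexins. The 10 astrocyte markers summed to 6456 and 5430 CPM in miR-ctl, to 13195 and 8996 CPM in miR-145 and to 10887 and 6474 CPM in miR-145+miR-219. All 10 had a log2 fold change above 0 with miR-145, against 48.4% of all genes. Higher, separate libraries were seen for 8, against 22.9% of all genes. The 14 microglia markers summed to 449 and 665 CPM in miR-ctl and to 457 and 1136 CPM in miR-145. Their sum was 421 and 746 CPM with both mimics. With miR-145, 13 of 14 were above 0, but only 4 had both miR-145 libraries above both controls, where 22.9% of all genes did. In replicate 1 of miR-145 the microglia sum lay within the range of the miR-ctl libraries. Replicate 2 was the higher library of each OL group in the microglia sum and in the sum of maturing OL markers, as in Anxa2, Anxa3 and Anxa4, and the lower library in the astrocyte sum. Fibroblast or mural cell markers summed to 30.7 and 21.0 CPM in miR-ctl and to 50.5 and 85.3 CPM in miR-145. Their sum was 59.0 and 47.1 CPM with both mimics. All 5 that were tested had higher, separate libraries with miR-145, against 22.9% of all genes. Replicate 2 of miR-145, the highest OL library for 7 of the 8 annexins, stood apart in some genes of this list but not in others. Col3a1 was at 29.9 CPM there, at 3.05 CPM in replicate 1 and at 0.13 and 0.80 CPM in miR-ctl. Col1a1 was at 16.4, 1.75, 0.93 and 1.16 CPM in the same libraries. Dcn was at 1.84 CPM in replicate 2 and 0.06 CPM in replicate 1 of miR-145, and Pdgfrb was at 5.89 and 5.15 CPM. Tagln, at 31.1 and 40.0 CPM, and Acta2, at 0.18 and 0.52 CPM, were lower in replicate 2. The sum of maturing OL markers was 16874 and 31542 CPM in miR-ctl and 15646 and 25197 CPM in miR-145 and 19518 and 34690 CPM with both mimics, and that of endothelial markers was 27.7 and 19.4 against 14.3 and 10.2 CPM. The neuronal sum lay between 29.2 and 43.9 CPM in all OL libraries. The part of these cells in the annexin levels was not tested.

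**Figure D3:**
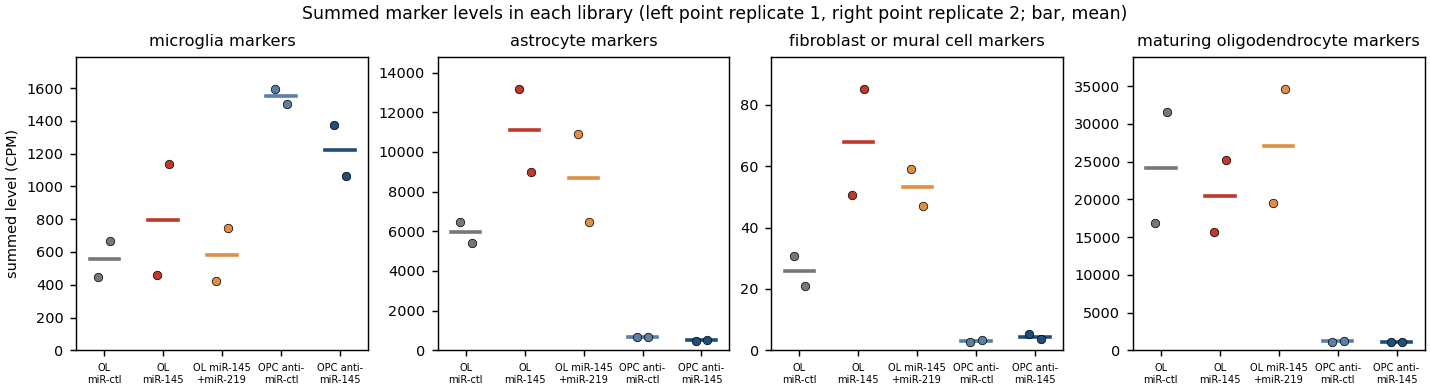
Summed level of the markers of 4 cell types in CPM (vertical axes, linear from 0, own scale for each list) in every library of the 5 groups. Points are libraries, replicate 1 on the left and replicate 2 on the right, and bars are means. The astrocyte sum is highest in miR-145 OLs, at 13195 and 8996 CPM, and the microglia sum is higher in replicate 2 than in replicate 1 of each OL group.

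Control OLs and control OPCs differed in scrambled oligonucleotide, culture medium and time after transfection as well as in stage. Marker sums of other cells differed too. The astrocyte sum was 6456 and 5430 CPM in control OLs and 680 and 649 CPM in control OPCs. The microglia sum was 449 and 665 against 1597 and 1501 CPM. These differences cannot be told apart. The control libraries did not overlap for 6 of the 8 annexins, where 81.8% of all genes did not. The values are a description because the miR-ctl libraries also served the choice of the family. Anxa4 was 68.3 ± 4.89 CPM in control OPCs and 8.46 ± 1.70 CPM in control OLs (SD, n = 2), which is -3.03 on the log2 scale for OLs relative to OPCs. Anxa6 was 658 ± 16.0 CPM in control OPCs and 167 ± 2.38 CPM in control OLs (-1.99), Anxa3 was 92.4 ± 0.26 and 33.3 ± 7.00 CPM (-1.49), and Anxa5 was 74.5 ± 1.08 and 31.8 ± 5.22 CPM (-1.24). These 4 were the annexins lower in OLs. Higher in OLs were Anxa1, at 9.60 ± 1.69 against 1.79 ± 0.21 CPM (2.41), and Anxa11, at 63.2 ± 0.28 against 38.6 ± 1.46 CPM (0.70). Anxa2 (0.43) and Anxa7 (0.05) overlapped. Scaling by library totals alone moved the median of all genes in this comparison from 0.0072 to -0.12 on the log2 scale and took Anxa7 to -0.074.

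Over the 5 groups the annexins fell into different orders. Separate libraries were common among all genes too. They did not overlap for 81.8% of genes between the controls, 68.5% in OPCs and 47.3% between miR-145 and miR-ctl. The shares were 36.8% for miR-145+miR-219 relative to miR-ctl and 24.8% relative to miR-145. The share of all genes with every step separate was not determined. Anxa1 and Anxa2 shared the order miR-145, miR-145+miR-219, miR-ctl, anti-miR-145 and anti-miR-ctl from high to low. For Anxa1, neighbours overlapped in 3 of 4 steps, and the separate step was the one between OLs and OPCs. For Anxa2 also 3 of 4 steps overlapped, and the separate step lay between miR-145+miR-219 and miR-ctl. Anxa7 and Anxa11 had the 3 OL groups in that order and then anti-miR-ctl and anti-miR-145. No neighbours overlapped for Anxa11, while for Anxa7 miR-ctl overlapped anti-miR-ctl and the latter overlapped anti-miR-145. Anxa6 was highest in anti-miR-145, followed by anti-miR-ctl, miR-145, miR-145+miR-219 and miR-ctl, with no overlap between neighbours. Anxa5 ran from anti-miR-ctl through miR-145, miR-145+miR-219 and miR-ctl to anti-miR-145, again with no overlap. Anxa4 ran from anti-miR-ctl to anti-miR-145, miR-145, miR-ctl and miR-145+miR-219, and only the first step was separate. Anxa3 ran from anti-miR-145 to miR-145, anti-miR-ctl, miR-145+miR-219 and miR-ctl, where miR-145 overlapped both of its neighbours. The ratio of the highest to the lowest group mean was 8.75 for Anxa4, 7.24 for Anxa1, 4.57 for Anxa6, 3.78 for Anxa5, 3.58 for Anxa11, 3.19 for Anxa3, 2.23 for Anxa2 and 1.67 for Anxa7.

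As a description over the 10 libraries, which share their groups and stages, Anxa1, Anxa2, Anxa7 and Anxa11 followed each other, with r from 0.68 (Anxa2 and Anxa11) to 0.92 (Anxa2 and Anxa7), and Anxa4 followed Anxa6 (r = 0.76). Anxa4 and Anxa5, which fell together in OPCs, had r = 0.47, and Anxa6 ran opposite to Anxa1 (r = -0.95) and Anxa11 (r = -0.92). The 5 genes whose pattern was most like the mean of the 8 annexins, among 12514 genes with a mean of at least 1 CPM, were Scpep1 (r = 0.95), Il17ra (0.94), Tmem63a (0.94), Anpep (0.94) and Tcirg1 (0.94).

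Partner genes of the annexins moved in both directions in OPCs. Of 14 tested partners and receptors, 5 were called higher and 4 lower in anti-miR-145 OPCs, against 12.1% higher and 16% lower of all genes, with a median log2 fold change of 0.09. S100a10, the light chain that binds Anxa2, rose from 144 ± 9.27 to 354 ± 42.7 CPM (SD, n = 2), by 1.29 on the log2 scale (SE 0.11, edgeR adjusted p = 0.00032), while Anxa2 was at 32.7 ± 1.78 and 34.7 ± 2.71 CPM. In single libraries S100a10 was at 137 and 150 CPM in anti-miR-ctl and at 384 and 323 CPM in anti-miR-145. The plasminogen activators, which act on plasminogen held by the Anxa2 and S100a10 complex, rose as well. Plau went from 1.86 ± 0.24 to 6.93 ± 0.66 CPM (log2 fold change 1.87, edgeR adjusted p = 0.000459), and Plat went from 24.3 ± 1.93 to 39.2 ± 0.61 CPM (0.68, edgeR adjusted p = 0.00268), although Plat was not called in a fit of all 10 libraries (edgeR adjusted p = 0.0759). Plaur, the receptor of Plau, and Pdcd6, the ALG-2 protein that binds Anxa7 and Anxa11, were the others called higher. These were named after their values were seen.

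Other partners of the S100 family moved against S100a10 in anti-miR-145 OPCs. S100a6, a partner of Anxa11, fell from 6.38 ± 0.96 to 0.79 ± 0.34 CPM (log2 fold change -3.03, edgeR adjusted p = 0.000494). S100b fell from 133 ± 6.00 to 74.4 ± 0.04 CPM (-0.85, edgeR adjusted p = 0.000438). S100a4, named after its values were seen, fell from 48.0 ± 1.48 to 8.58 ± 4.04 CPM (-2.50, edgeR adjusted p = 0.000875). Ahnak, a scaffold of the Anxa2 and S100a10 complex, fell from 4.73 ± 0.12 to 1.17 ± 0.23 CPM (-2.02, edgeR adjusted p = 0.000604). S100a11, the partner of Anxa1, was near the limit of detection at 0.29 ± 0.18 and 0.17 ± 0.04 CPM and was not called (edgeR adjusted p = 0.403). The formyl peptide receptors Fpr1, Fpr2 and Fpr3 were not analysed here.

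**Figure D4:**
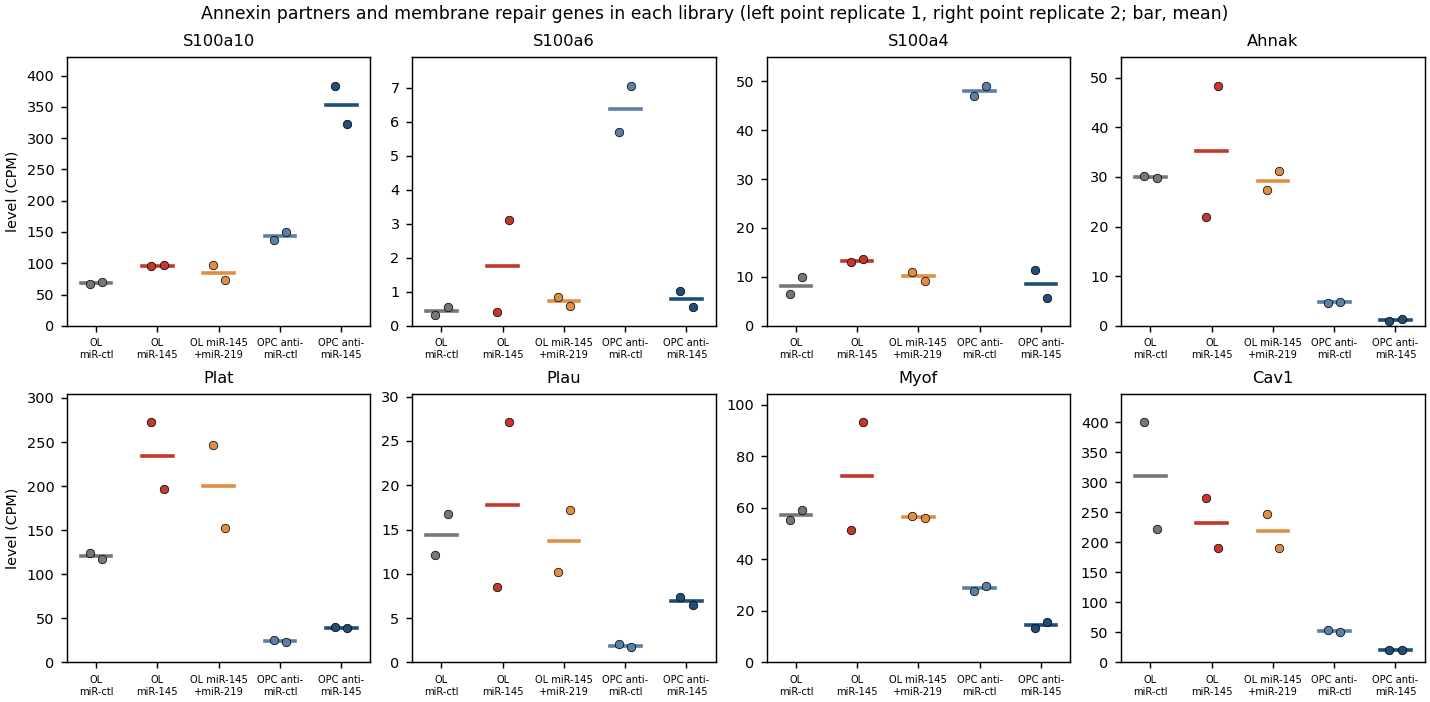
Level in CPM (vertical axes, linear from 0, own scale for each gene) of 8 annexin partners and membrane repair genes in every library of the 5 groups. Points are libraries, replicate 1 on the left and replicate 2 on the right, and bars are means. S100a10, Plat and Plau are higher and S100a6, S100a4, Ahnak, Myof and Cav1 are lower in both anti-miR-145 OPC libraries than in both anti-miR-ctl OPC libraries.

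Among 14 tested genes of plasma membrane repair, 2 were called higher and 4 lower in anti-miR-145 OPCs, against 12.1% and 16% of all genes, with a median of -0.14. Cav1, the main protein of caveolae, fell from 52.2 ± 2.39 to 20.9 ± 0.07 CPM (log2 fold change -1.34, edgeR adjusted p = 0.00012), and Cavin1, named after its values were seen, fell from 7.91 ± 0.31 to 4.39 ± 0.87 CPM (-0.86, edgeR adjusted p = 0.0112). The ferlin Myof fell from 28.7 ± 1.30 to 14.4 ± 1.70 CPM (-1.01, edgeR adjusted p = 0.000796), and the membrane-remodelling ATPase Ehd1 fell from 472 ± 28.7 to 218 ± 40.2 CPM (-1.12, edgeR adjusted p = 0.00133). The calpain Capn2 rose from 133 ± 3.88 to 203 ± 1.42 CPM (0.60, edgeR adjusted p = 0.00184). The ferlin Dysf was at 0.20 ± 0.06 and 0.61 ± 0.15 CPM (1.57, edgeR adjusted p = 0.0361), a call that was kept in 6 of 11 other settings.

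Phosphatidylserine is the lipid that Anxa5 binds. Of 12 tested genes for its exposure or flipping, 0 were called higher and 1 was called lower, against 12.1% and 16% of all genes, and the median was -0.10. The called gene was the flippase Atp11b, which fell from 56.4 ± 0.60 to 34.2 ± 1.79 CPM (log2 fold change -0.74, edgeR adjusted p = 0.000995). Between miR-145 and miR-ctl OLs, 12 of 14 partners, 7 of 13 repair genes and 7 of 12 phosphatidylserine genes had a log2 fold change above 0, against 48.4% of all genes, with medians of 0.31, 0.15 and 0.15 and with 0 called by edgeR. S100a10 was at 67.2 and 69.7 CPM in miR-ctl, 95.4 and 96.5 CPM in miR-145 and 97.1 and 72.6 CPM with both mimics.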

How the data were processed

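The authors prepared stranded mRNA libraries, assigned reads to GENCODE Rnor6.0 transcripts with Salmon 0.12.0 and loaded them with tximport. The deposited table of 23487 genes holds estimated counts without normalization. Between 16.0% and 17.5% of values per library were not whole, and counts were rounded. The authors also deposited their DESeq2 comparison of miR-145 with miR-ctl, with columns for mean signal, log2 fold change, standard error, test score and p-values. These columns were not used, only its gene symbols. The methods paragraph on RNAseq names lentivirus, whereas the results and labels name mimics.

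Each comparison was fitted on its own 4 libraries, keeping genes that reached 5 counts in 2 or more of them, with edgeR's quasi-likelihood test (R 4.3.3, edgeR 4.0.16, TMM) and Benjamini-Hochberg adjustment over all genes tested, called under 0.05. DESeq2 1.42.0 was an alternative. The annexins passed the filter in all 5 comparisons, and they were tested only in OPCs. A standard error is the log2 fold change divided by the square root of F. On simulated data for the OPC comparison, 15322 genes with 200 changed, 56 of 66 genes were called at a log2 fold change of 1, 65 of 67 at 2 and 67 of 67 at 3, with 8 false calls. For miR-145 and miR-ctl OLs the same run called 42 of 66, 61 of 67 and 66 of 67, with 20 false calls. Far fewer genes were changed in the simulations than the 28.1% called in the OPC libraries, so these shares need not hold for the data. In the real miR-145 and miR-ctl OLs edgeR called 0 genes. The simulated OL shares therefore do not tell how large a change could be found in those libraries. The simulated OL run also gave more false calls (20) than the OPC run (8). RefSeq lists 12 annexins, and the other 4 (Anxa8, Anxa9, Anxa10 and Anxa13) were not used here.

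The members and lists were chosen with earlier results of these data known. From each list the text names S100a10, S100a11, Fpr1, Fpr2, Ahnak, Dysf and Myof and the 3 called genes of smallest p in each direction in OPCs, and others as stated. Figures used Python 3.11.15 with matplotlib 3.10.9, numpy 2.4.6 and pandas 2.3.3. Alternatives comprised DESeq2, its size factors used in edgeR, library totals alone, no filter, a minimum of 10 counts, all 10 libraries in a single fit, a replicate block, and leaving out each library.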

Additional observations from a re-analysis of the deposited data

How the results depend on the processing

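Whether the replicate numbers pair the libraries is not given in the sources, and deviations of same-numbered libraries correlated at 0.24 for miR-145 and miR-ctl, 0.24 for miR-145+miR-219 and miR-ctl, 0.42 for the 2 mimic groups, -0.07 in OPCs and 0.03 between the controls. A replicate block moved the genes called by edgeR from 0 to 2272 in miR-145 relative to miR-ctl, from 0 to 132 in miR-145+miR-219 relative to miR-ctl and from 0 to 184 in miR-145+miR-219 relative to miR-145. In OPCs the block again called 3 annexins. DESeq2 called 649, 106 and 9 genes in the 3 OL comparisons. A single fit of all 10 libraries called 32 genes in miR-145 relative to miR-ctl and 2553 in OPCs in place of 4348, and without a filter 1 gene was called in miR-145+miR-219 relative to miR-ctl. Where a library was left out, the lone library of its group was assumed to vary like the others. The genes called in OPCs then ran from 2424 to 7130, with 7130 without replicate 2 of anti-miR-145 and 2424 and 2530 without replicates 1 and 2 of anti-miR-ctl, and those between the controls ran from 5016 to 10591. The annexins called in OPCs ran from 3 to 5. Their median ran from 0.32 (without replicate 2 of miR-145) to 0.71 in miR-145 relative to miR-ctl, from -0.31 to 0.071 in OPCs and from -0.47 to 0.0017 in miR-145+miR-219 relative to miR-145.

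Single annexins also changed sign when a library was left out, with the following log2 ranges. In miR-145 relative to miR-ctl Anxa4 ran from -0.30 to 0.59. In miR-145+miR-219 relative to miR-ctl Anxa1 ran from -0.11 to 0.26 and Anxa4 from -0.37 to 0.11. In miR-145+miR-219 relative to miR-145 Anxa1 ran from -0.69 to 0.016, Anxa2 from -0.51 to 0.34, Anxa3 from -1.04 to 0.12 and Anxa4 from -0.72 to 0.19. In OPCs Anxa1 ran from -0.35 to 0.60, Anxa2 from -0.021 to 0.17 and S100a11 from -1.30 to 0.022. Between the controls Anxa7 ran from -0.083 to 0.18, and it was -0.074 with library totals alone. The causes were not tested. Anxa4, Anxa5 and Anxa11 stayed below 0 and called in OPCs in all 11 settings.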
